A study of Mus musculus with 18 samples.

Results

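The 6 genes described here, Gcg, Pyy, Cck, Nts, Insl5 and Sct, encode peptide hormones of L, I and N cells, enteroendocrine cells of the gut epithelium. They were chosen by name, as the probe sets whose platform gene symbol is exactly one of the 6, and make up 6 of the 19938 genes of the array. Each was measured by 1 probe set. Their levels were compared between crypt cells that were negative, low or high for a fluorescent reporter.

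The samples were small intestinal crypt cells of 4-month-old C57Bl6/J mice of genotype FltpZV/+. All 3 gates carry this single Flattop-Venus reporter allele, so no group lacks it. Dissociated cells were sorted by the level of green fluorescence into the gates FVR-negative, FVR-low and FVR-high. Each gate had 2 arrays, and each array was hybridised with RNA pooled from 2 animals, so a value is a mean over 2 animals and over all cells of a gate. Of the 18 samples of the series, 6 hold values in the file used here, and the 12 of a lineage-tracing line were not analysed here. The reporter reads out Flattop (Cfap126) and no hormone gene, and the labels do not say whether gates with the same replicate number came from the same mice. What a p-value weighs here is the spread between such pooled arrays, part of which may be technical.

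Enteroendocrine cells are scattered through the epithelium and release hormones into the blood when they sense food. L cells secrete proglucagon products (Gcg), among them glucagon-like peptide 1, together with peptide YY (Pyy) and, mainly in the large intestine, insulin-like peptide 5 (Insl5). I cells secrete cholecystokinin (Cck), which contracts the gallbladder, and N cells secrete neurotensin (Nts). Secretin (Sct), which makes the pancreas release bicarbonate, is the product of the classical S cell but is also found in several of the other endocrine types.

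Values are RMA log2 signals, and a background level of 4.23 was set from olfactory, vomeronasal and trace amine receptor genes. Array medians lay between 4.54 and 4.74. All 7 epithelial markers, Epcam and Cdh1 among them, were above background in each gate. All 7 general enteroendocrine markers rose in the low gate over the negative gate, and their summed signal was 8.10 to 8.32 on negative arrays, 13.77 to 14.02 on low arrays and 9.26 to 10.29 on high arrays (log2). Markers of other cells also moved. Of all genes, 3.42% rose in low over negative cells, and 1.36% rose and 3.35% fell in high against negative cells. All 7 measured Paneth markers rose in the low and in the high gate, with summed signals of 12.40 to 12.75, 14.97 to 15.10 and 15.34 to 15.57 on negative, low and high arrays. All 5 measured T cell markers rose in the low gate and fell in the high gate, with summed signals of 10.90 to 11.03, 12.63 to 12.64 and 8.79 to 8.90. No T cell or Paneth marker was below background in any gate, and the part of these cells in the hormone gene results was not tested.

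Gcg, Pyy, Cck, Nts and Sct were far higher in the low gate than in the negative gate, by 27.0-fold for Sct and by 83.2-fold or more for the other 4. Insl5 stayed near background in every gate. Of the 6 genes, 5 rose in low against negative cells, where 3.42% of all genes rose (limma, Benjamini-Hochberg adjusted p under 0.05). Both low arrays exceeded both negative arrays for all 6, as they did for 23.0% of all genes. In a bulk sample a gate with more endocrine cells cannot be told apart from one with more hormone RNA per cell. The same 5 genes were called with any 1 of the 6 arrays left out, while the number of all genes called ranged from 187 (without negative replicate 1) to 1761 (without either high array) around the 1188 of the full fit.

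**Figure D1:**
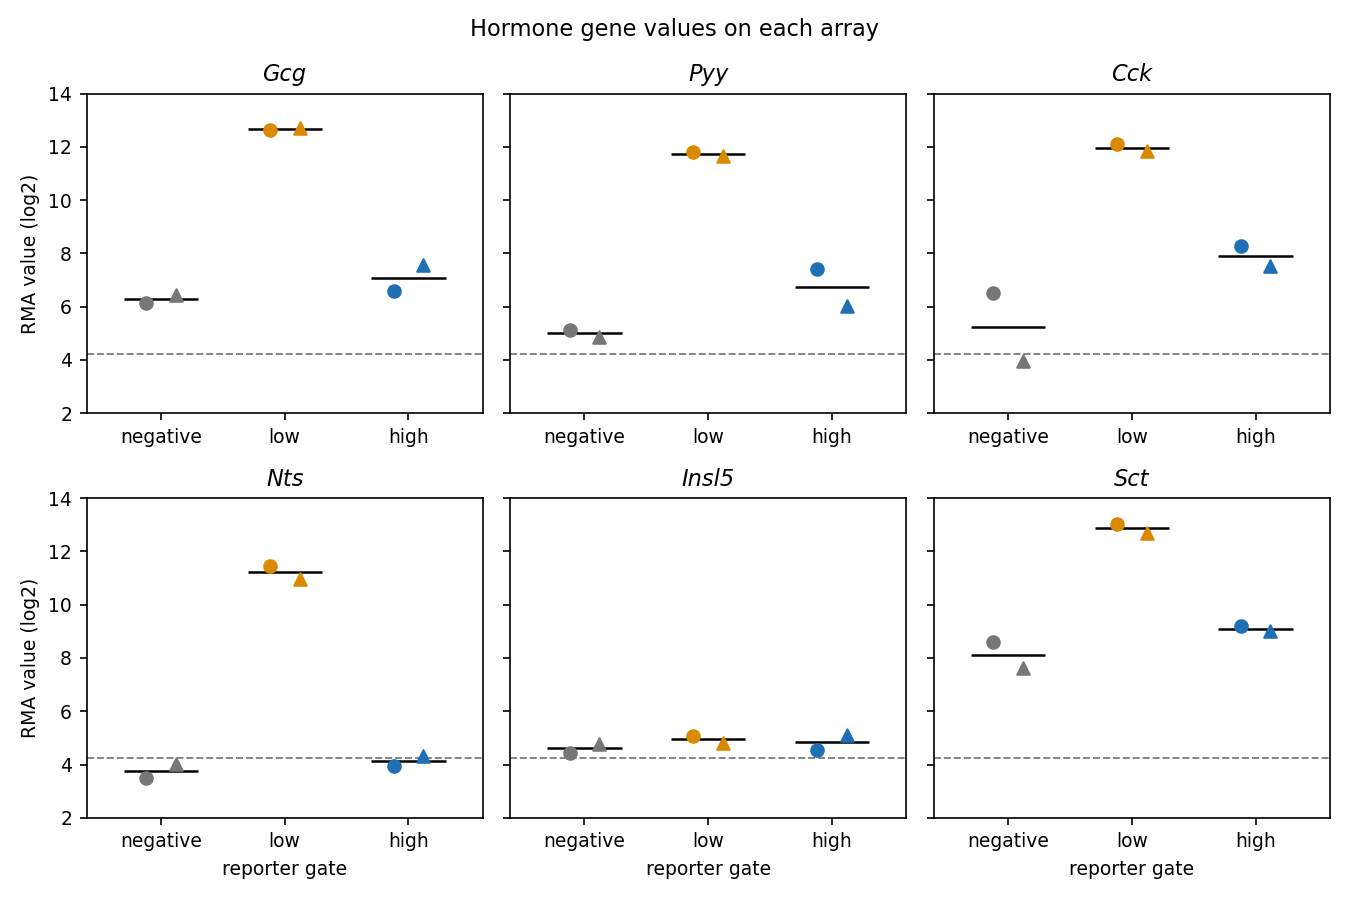
RMA value (log2, vertical axis) of each hormone gene on the 6 arrays by reporter gate; circles are replicate 1, triangles replicate 2, horizontal bars the mean of the 2 arrays, and the dashed line the background level of 4.23. Both low arrays lie above all other arrays for Gcg, Pyy, Cck, Nts and Sct, by 3.51 (Sct) to 6.64 (Nts), and the 6 Insl5 values stay between 4.44 and 5.10.

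Gcg, the proglucagon gene, read 6.15 and 6.43 on the negative arrays, 12.65 and 12.70 on the low arrays and 6.59 and 7.56 on the high arrays. Both low arrays were high and nearly equal, and the negative arrays were above background. Low cells averaged 12.67 ± 0.03 (SD, n = 2) and negative cells 6.29 ± 0.20, a difference of 6.38 ± 0.32 (SE; limma adjusted p = 0.000387).

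Pyy, which encodes the appetite-lowering peptide YY, read 5.14 and 4.85 on the negative arrays, 11.79 and 11.66 on the low arrays and 7.42 and 6.04 on the high arrays. The low arrays again stood apart, and the high arrays lay between the other gates and 1.38 from each other. Low minus negative was 6.73 ± 0.42 (SE; limma adjusted p = 0.000594), which is 106-fold.

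Insl5, the third L cell hormone gene, read 4.44 and 4.78 on the negative arrays, 5.06 and 4.82 on the low arrays and 4.55 and 5.10 on the high arrays. All 6 values were a little above background and spanned 0.67. Low minus negative was 0.33 ± 0.25 (SE; limma adjusted p = 0.623), and its 95% interval ran from -0.27 to 0.94. For the array signal this leaves room for a change of under 2-fold and lies far below the changes of Gcg and Pyy. RMA compresses differences this near the floor, so the interval does not limit the change in Insl5 RNA.

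Cck, the I cell hormone gene, read 6.50 and 3.97 on the negative arrays, 12.09 and 11.83 on the low arrays and 8.28 and 7.52 on the high arrays. The negative arrays disagreed by 2.53, more than any gate of the other 5 genes, and only replicate 1 was above background. Low minus negative was 6.72 ± 0.74 (SE; limma adjusted p = 0.00487). With negative replicate 2 left out the difference was 5.46. With negative replicate 1 left out the remaining negative array was below background and the difference was at least 7.73. Both fits drop the disagreement of the negative arrays from the estimate of the spread, so they cannot check it.

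Nts, the N cell hormone gene, read 3.50 and 4.01 on the negative arrays, 11.47 and 10.96 on the low arrays and 3.94 and 4.32 on the high arrays. No negative array was above background, and of the high arrays only replicate 2 was, so Nts was clearly measured in the low gate alone. Against the background level the low gate was higher by at least 6.98 (log2), or at least 126-fold (limma adjusted p = 0.000198 for the fitted difference of 7.46 ± 0.28, SE).

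Sct, the secretin gene, read 8.60 and 7.62 on the negative arrays, 13.03 and 12.70 on the low arrays and 9.18 and 9.03 on the high arrays. Every gate was well above background, which sets Sct apart from Nts. Low minus negative was 4.75 ± 0.33 (SE; limma adjusted p = 0.000991). By size of the fitted increase among 19938 genes, Pyy ranked 4, Gcg 8, Sct 32 and Insl5 3453. No rank is given for Nts and Cck, which were not above background on 2 and 1 of the negative arrays.

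The start regions of the hormone genes are shown because 5 of the 6 genes rose together. All 6 matched the RefSeq promoter table (GRCm38.p6), in 8 windows, since Pyy and Insl5 have a pair of listed starts each. The 250 bases before the start are printed 5′ to 3′ for the leading L cell genes and for the I and N cell genes. Capitals mark CAGATG, a form of the E-box bound by basic helix-loop-helix factors such as Neurod1, and the TATA box TATAAA, each searched on both strands. The windows are on the minus strand at chr2:62483654-62483903 (Gcg), chr11:102107833-102108082 (Pyy, the farther upstream start), chr9:121495695-121495944 (Cck) and chr10:102490419-102490668 (Nts).
Gcg: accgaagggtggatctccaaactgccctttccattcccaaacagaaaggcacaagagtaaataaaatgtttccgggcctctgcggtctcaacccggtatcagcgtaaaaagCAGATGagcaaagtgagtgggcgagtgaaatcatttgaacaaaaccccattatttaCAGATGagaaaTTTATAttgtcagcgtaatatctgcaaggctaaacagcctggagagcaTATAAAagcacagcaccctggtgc
Pyy: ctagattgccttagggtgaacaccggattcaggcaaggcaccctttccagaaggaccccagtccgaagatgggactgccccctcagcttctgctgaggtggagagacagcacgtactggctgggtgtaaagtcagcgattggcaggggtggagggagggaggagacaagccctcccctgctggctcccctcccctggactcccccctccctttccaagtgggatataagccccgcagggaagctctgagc
Cck: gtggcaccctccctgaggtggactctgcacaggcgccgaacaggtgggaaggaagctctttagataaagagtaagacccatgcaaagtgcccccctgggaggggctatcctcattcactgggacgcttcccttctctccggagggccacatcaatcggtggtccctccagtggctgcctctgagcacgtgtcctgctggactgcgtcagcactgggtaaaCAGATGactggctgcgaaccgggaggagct
Nts: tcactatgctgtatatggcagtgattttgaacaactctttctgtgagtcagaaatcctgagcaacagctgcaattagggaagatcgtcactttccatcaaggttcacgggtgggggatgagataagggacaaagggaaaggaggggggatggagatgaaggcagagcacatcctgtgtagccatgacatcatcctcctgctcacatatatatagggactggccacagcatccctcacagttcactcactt

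Gcg holds CAGATG at 139 and 83 bases before its start, Cck at 30 bases, and Insl5 and Sct, not printed, at 178 and 242 bases. The Pyy and Nts windows hold none, although both genes rose, and Insl5 holds one although it did not. The letters were found for 4 of the 6 genes (4 of 8 windows) and in 14.4% of all 32851 windows of the same 250 bases. TATAAA was found for Gcg, Insl5 and Sct (4 of 8 windows), against 12.4% of all windows. The general E-box CANNTG, which includes CAGATG, was found in 8 of 8 windows, against 66.2%. The Pyy windows overlap, and their E-box is 1 site, 36 bases before one start and 92 before the other, so it was counted for both windows. The letters AGATAA, known for binding the zinc finger factors of haematopoietic and gut lineages, were found for Cck, Nts and Insl5 (3 of 8 windows, against 9.99%), and the forkhead site GTAAACA for Cck and Insl5 (2 of 8, against 3.17%). In Cck the last 2 bases of the forkhead letters are the first 2 of CAGATG. The caudal type site TTTATN, which overlaps the TATA box on the other strand, was found for Gcg, Cck, Insl5 and Sct (5 of 8, against 37.2%). The core of the cyclic AMP response element, TGACG, was found for Cck and Nts (2 of 8, against 17.8%), and the variant TGACATCA for Nts alone (1 of 8, against 2.93%). These are matches of letters in a window and do not show binding.

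In the high gate the same 5 genes fell back towards their negative levels. Of the 6 genes, 5 were lower in high than in low cells, where 3.89% of all genes were lower (limma adjusted p under 0.05), and both high arrays lay below both low arrays for these 5 genes, as for 20.4% of all genes. Nts passed the test (limma adjusted p = 0.000308) with a fitted decrease of 7.08 ± 0.28 (SE), whose size is uncertain because the high gate averaged 4.13, below the background level, with 1 of its 2 arrays above it. Gcg was lower by 5.60 ± 0.32 or 48.3-fold (adjusted p = 0.000633), Pyy by 4.99 ± 0.42 or 31.9-fold (adjusted p = 0.00179) and Sct by 3.76 ± 0.33 or 13.5-fold (adjusted p = 0.00204). Cck was lower by 4.06 ± 0.74 or 16.7-fold (adjusted p = 0.0303). Its call was lost without low replicate 1 (adjusted p = 0.141), low replicate 2 (adjusted p = 0.12) or high replicate 2 (adjusted p = 0.108), and with array weights (adjusted p = 0.084). The difference for Insl5 was -0.11 ± 0.25 (adjusted p = 0.795), and its arrays overlapped. All genes called numbered 978, and between 381 (without low replicate 2) and 1739 (without high replicate 1) with 1 array left out; leaving out low replicate 1 gave 390 and either negative array 499. All gates share 1 estimate of the spread, and the low arrays enter this comparison and the one before it.

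**Figure D2:**
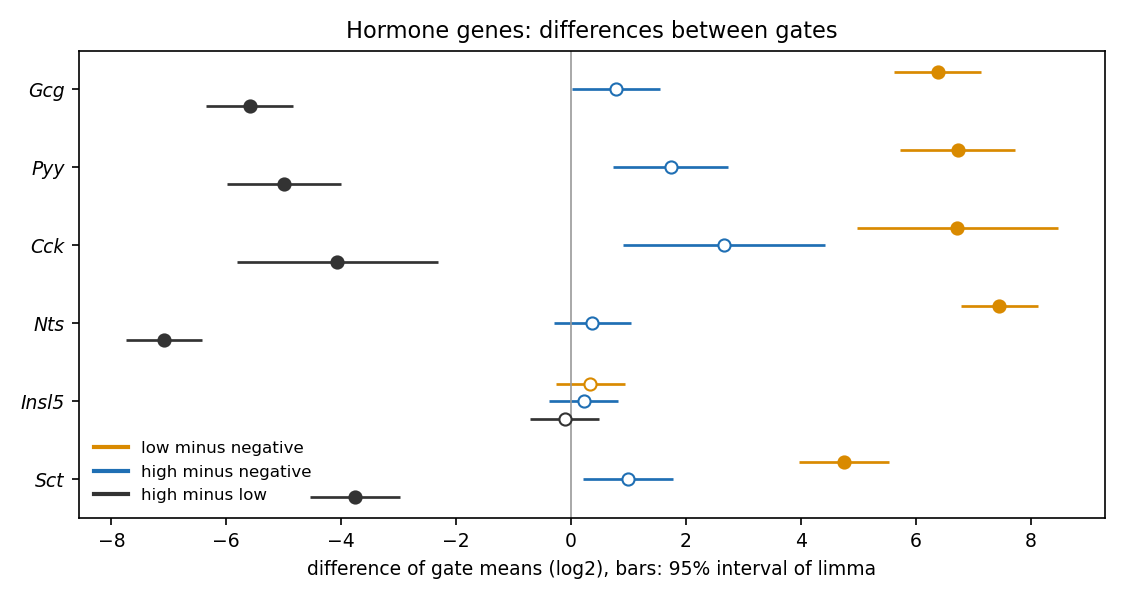
Difference between gate means (log2, horizontal axis) of each hormone gene, with the 95% interval of limma as bars, for low minus negative, high minus negative and high minus low cells; filled points have an adjusted p under 0.05 and open points do not. The 5 genes other than Insl5 have filled points for low minus negative and for high minus low, and all 6 points of high minus negative are open, from 0.22 to 2.66.

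Between high and negative cells none of the 6 genes was called (limma adjusted p from 0.0704 to 0.624), where 1.36% of all genes rose. At an unadjusted p under 0.05, 4 were higher (Gcg, Pyy, Cck and Sct), against 9.28% of all genes. The arrays of the same 4 genes did not overlap, with the high gate above, as for 32.9% of all genes. Cck was higher by 2.66 ± 0.74 (SE; adjusted p = 0.0994), Pyy by 1.74 ± 0.42 (adjusted p = 0.0704), Sct by 0.99 ± 0.33 (adjusted p = 0.143) and Gcg by 0.78 ± 0.32 (adjusted p = 0.216). The order of the means was negative, high and low for all 6 genes, and the step from negative to high was called for none of them. Nts differed by 0.37 ± 0.28 (adjusted p = 0.46) and Insl5 by 0.22 ± 0.25 (adjusted p = 0.624), and the arrays overlapped for both.

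The size of these differences depended on single arrays. With negative replicate 2 left out, Cck was higher by 1.39 and Sct by 0.51. With negative replicate 1 left out, Cck was higher by at least 3.67, the remaining negative array being below background, and Sct by 1.48. The high arrays agreed less well with each other than those of the other gates did (Pearson correlation across genes of 0.946, against 0.981 and 0.975 for the negative and low pairs). The Pyy difference was 1.05 without high replicate 1 and 2.43 without high replicate 2. Leaving out 1 high array removes the disagreement of the high arrays from the estimate of the spread. A pass in such a fit is therefore not stronger evidence than the full fit. With all arrays kept, the Pyy difference passed when only genes above background were tested (limma adjusted p = 0.0476). The Gcg difference was 1.27 without high replicate 1 and 0.30 without high replicate 2. Sct passed in 0 of 15 alternative fits. The number of all genes called was 939, and it was 15 or 13 when negative replicate 1 or 2 was left out, 561 without either low array and 1919 without high replicate 1. The share that these counts are read against therefore depends on the arrays used.

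Likeness between genes was measured as the root mean square difference of log2 values over the 6 arrays, each gene centred on its own mean. Among the 15 pairs, the closest were Gcg and Nts (0.67), Pyy and Cck (0.80) and Gcg and Pyy (0.80). Cck and Nts stood 1.59 apart, the widest distance among the 5 genes that rose, and Insl5 stood 1.98 to 3.32 from each of the others. Nts was below background on both negative arrays and 1 high array, and Cck on 1 negative array. Distances to these genes therefore rest in part on values near the floor.

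By the same measure, 2 genes nearest to each hormone gene were taken from 12297 other genes above background. Predicted genes, such as those with Gm and Rik names, were left out of these. Nearest to Gcg were Tpbg (0.42), which encodes trophoblast glycoprotein, and Rfx6 (0.48), a transcription factor of the endocrine lineage. Nearest to Pyy were the granin gene Chga (0.30) and Tph1 (0.31), the enzyme of serotonin synthesis in enterochromaffin cells. Nearest to Cck were Chgb (0.67), another granin gene, and Gip (0.71), the hormone gene of K cells. Nearest to Nts were Afp (0.39), which encodes alpha-fetoprotein, and Rfx6 (0.77). Nearest to Sct were Disp2 (0.27) and Etv1 (0.32), an ETS family factor. Insl5, with little variation to match, lay nearest to Cited4 (0.06) and Ccm2 (0.06). When likeness was measured by Pearson correlation, 1 of these 12 names stayed, so the names hold for this measure. Rfx6, Tph1, Afp, Disp2 and Etv1 were below background on both negative arrays, so their distances rest in part on values near the floor. Rfx6 was also below background on both high arrays and entered the candidates through the low gate alone.

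**Figure D3:**
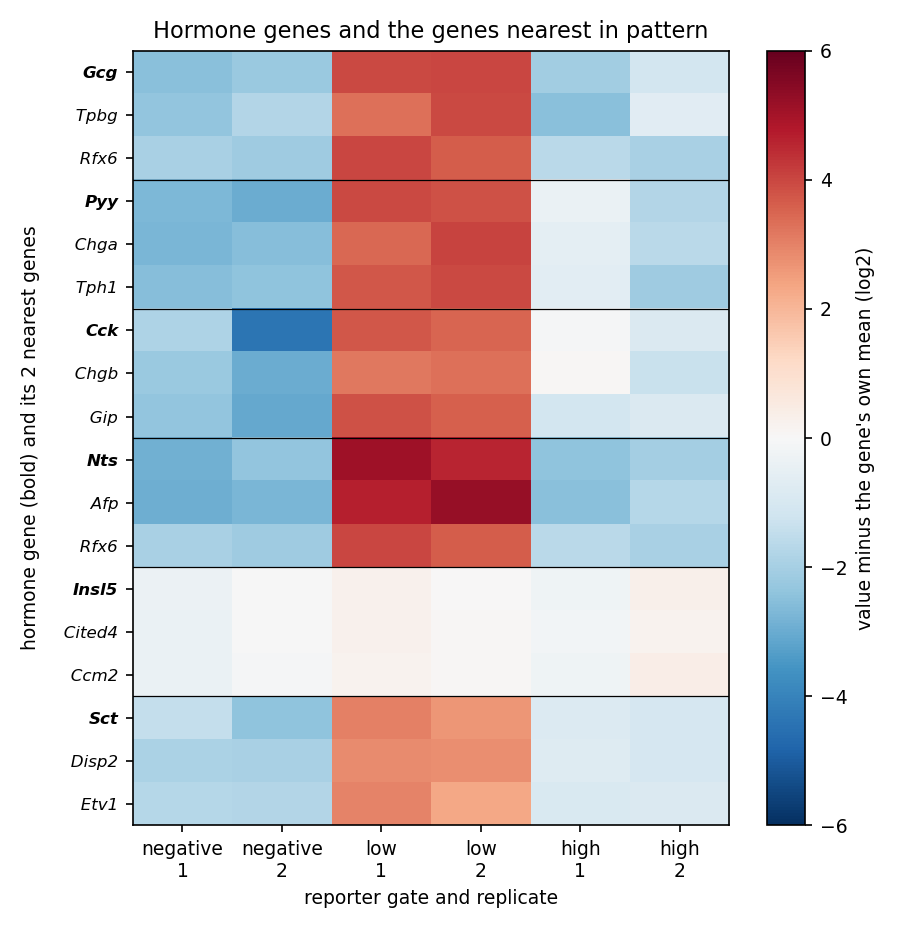
Log2 value minus the gene's own mean over 6 arrays (colour scale) for each hormone gene in bold and the 2 genes nearest to it, by array (horizontal axis: gate and replicate). The low arrays are the highest for each trio except that of Insl5, and Cck on negative replicate 2 read 3.97, against 6.50 on negative replicate 1.

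The machinery that cuts and stores these hormones rose with them. Of 14 measured prohormone processing and granule genes, 12 rose in low over negative cells, where 3.42% of all genes rose. Of the 14, 1, the convertase gene Pcsk5, fell (2.54% of all genes fell). The median difference of the 14 was 3.83 against -0.03 over all genes. Pcsk1, the convertase that releases glucagon-like peptide 1 from proglucagon, averaged 4.83 in negative, 9.91 in low and 5.65 in high cells and rose by 5.08 ± 0.26 (SE; limma adjusted p = 0.000387). Scg2, a granin below background on both negative arrays, rose by at least 5.33, and Chga rose by 6.41 ± 0.37. In high against low cells 10 of the 14 fell (3.89% of all genes fell), and in high against negative cells 0 were called. That count of 0 became 4 increases without high replicate 2 and 3 increases beside 1 decrease when only genes above background were tested.

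The transcription factor genes changed in part. Of 29 measured factors of L, I and N cells, 12 rose in low over negative cells (3.42% of all genes rose) and 0 fell. Their median difference was 0.76. Neurod1, which drives endocrine maturation, and Rfx6 stayed below background outside the low gate and were higher in low cells by at least 4.68 and at least 5.27. Pax6, which activates Gcg in L cells, rose by 4.24 ± 0.23 (limma adjusted p = 0.000455), and Etv1, dimmer than background on the negative arrays, by at least 4.16. In high against low cells 11 fell and 2 rose, namely Foxa3 and Tcf7l2 (3.89% of all genes fell and 1.01% rose). Without low replicate 1 there were 7 decreases, and both increases were lost when any 1 negative or low array was left out. In high against negative cells Foxa3 rose by 1.46 ± 0.18 (adjusted p = 0.0155) and Mlxipl, the glucose-responsive factor, fell by 1.45 ± 0.21 (adjusted p = 0.0186). Both calls were lost without either negative array (adjusted p from 0.117 to 0.145), and 6 factors were called without high replicate 1.

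A minority of the sensors of food moved with the hormones. Of 20 measured nutrient and bile acid sensor genes, 6 rose in low over negative cells and 1 fell. Of all genes, 3.42% rose and 2.54% fell there. The median difference of the sensor genes was 0.34. Trpa1, an irritant-sensing channel, rose by at least 4.54 and Abcc8, a subunit of the ATP-sensitive potassium channel, by 3.18 ± 0.31 (limma adjusted p = 0.0034). The fatty acid receptor gene Ffar1 rose by at least 1.62, a call lost without either negative array (adjusted p = 0.056 and 0.0546). The gene that fell was Npc1l1, the cholesterol importer of enterocytes, which lost its call in 7 of 15 alternative fits. Called sensors numbered 3 or 2 when negative replicate 1 or 2 was left out. In high against low cells 5 fell and 0 rose, where 3.89% of all genes fell. In high against negative cells the absorptive transporters Slc15a1 (for peptides), Slc5a1 (for glucose) and Npc1l1 fell by 2.04 ± 0.28, 1.63 ± 0.30 and 1.56 ± 0.21 (3.35% of all genes fell). These calls were lost without either negative array, and that of Slc5a1 also without either high array. Of 7 enterocyte markers, 2 fell in the same comparison, and their part in these decreases was not tested.

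Genes for the receptors of these hormones were mostly dim. Of 17 measured, 6 averaged above background, and Glp1r, the glucagon-like peptide 1 receptor, was the one called in each comparison. Of all genes, 3.42% rose in low over negative cells. In high against negative cells 3.35% fell, and in high against low cells 3.89% fell. A count of 1 in 17 lies near these shares and is no result about the receptors as a group. Glp1r read 5.76 and 5.32 on the negative arrays, 8.13 and 7.87 on the low arrays and 4.34 and 3.79 on the high arrays, of which replicate 2 was below background. It rose by 2.45 ± 0.26 in the low gate (limma adjusted p = 0.00461, or 0.0521 without negative replicate 2) and fell by 1.48 ± 0.26 from negative to high cells (adjusted p = 0.0318, lost in 6 of 15 alternative fits). It fell by 3.93 ± 0.26 from low to high cells (adjusted p = 0.000805). The T cell markers moved the same way, with Cd3g at 9.32, 11.00 and 6.69 and Itgae, an integrin of intraepithelial lymphocytes, at 8.07, 9.87 and 5.64 in negative, low and high cells. Gcg, by comparison, averaged 6.29 in negative and 7.08 in high cells. The part of lymphocytes in the Glp1r result was not tested.

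Few of the peptidases that degrade these hormones were called. Of 13 measured, 1 rose (Ece1) and 1 fell (Mep1b) in low over negative cells, where 3.42% of all genes rose and 2.54% fell. The median difference of the 13 was -0.11. Ece1, an endothelin-converting enzyme, rose by 1.25 ± 0.21 (limma adjusted p = 0.0203) and Mep1b, a meprin, fell by 2.04 ± 0.37 (adjusted p = 0.0262). Both calls were lost without negative replicate 1, negative replicate 2 or low replicate 2, and that of Ece1 also without low replicate 1. In high against low cells 2 fell, Ece1 and Dpp4 (3.89% of all genes fell). Ece1 averaged 7.21 in negative, 8.47 in low and 6.58 in high cells and fell by 1.89 ± 0.21 from low to high (adjusted p = 0.00526, called in 15 of 15 alternative fits). Dpp4, which inactivates glucagon-like peptide 1, averaged 9.21 in negative, 9.35 in low and 7.83 in high cells. It fell by 1.53 ± 0.18 from low to high cells (adjusted p = 0.00631, or 0.0507 without low replicate 2) and by 1.38 ± 0.18 from negative to high cells (adjusted p = 0.0166). Mme and Mep1b also fell from negative to high cells, where 3.35% of all genes fell, by 2.47 ± 0.39 and 1.79 ± 0.37. These 3 calls were lost without either negative array, that of Mme also without high replicate 2 and that of Mep1b without either high array. Without high replicate 1, 5 peptidases were called in high against negative cells and 5 in high against low cells.

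Other gut hormone genes were counted in the same way. Of all genes, 3.42% rose in low over negative cells and 1.36% in high against negative cells. In high against low cells 3.89% of all genes fell and 1.01% rose. Of 22 measured, 9 rose in low over negative cells, among them Gip, Sst (somatostatin) and Tph1, by 6.43 ± 0.28, 5.72 ± 0.34 and at least 5.97. In high against negative cells 6 of the 22 rose (Gast, Ghrl, Nucb2, Sst, Gip and Ppy), while in high against low cells 6 fell and 2 rose, or 5 and 0 without low replicate 1. The gastrin gene Gast rose by 6.95 ± 0.91 (limma adjusted p = 0.0167) and Nucb2, which encodes the precursor of nesfatin, by 4.03 ± 0.22 (adjusted p = 0.00126). Without either negative array 1 of the 22 was called, and Nucb2 was called in 15 of 15 alternative fits. Whether these genes differed from the L, I and N cell genes was not tested, and the called differences of Gip (1.75 ± 0.28) and Sst (2.11 ± 0.34) were smaller than the one for Cck that was not called (2.66 ± 0.74).

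**Figure D4:**
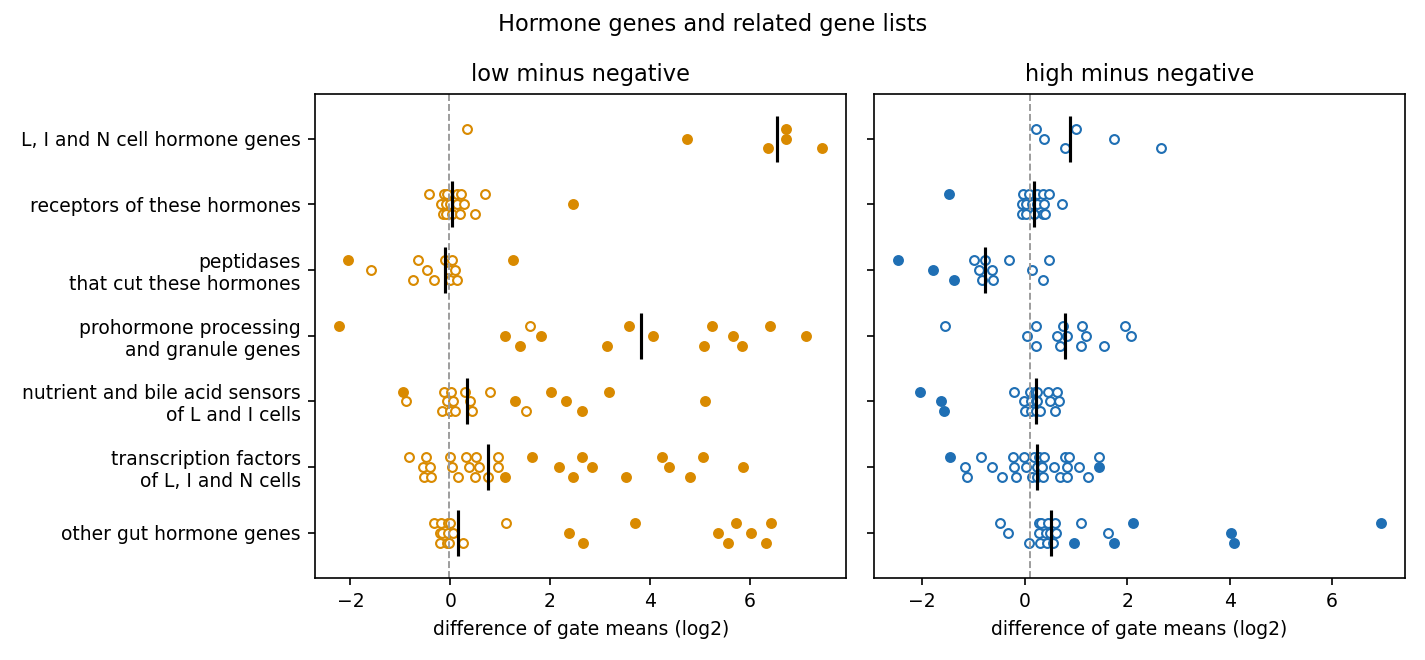
Difference between gate means (log2, horizontal axis) for the genes of each list (rows), low minus negative on the left and high minus negative on the right; filled points have an adjusted p under 0.05, black bars are list medians and the dashed line is the median of all genes (-0.03 and 0.10). The hormone genes and the processing genes have the medians farthest from the dashed line on the left (6.55 and 3.83), where receptors and peptidases lie around that line.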

How the data were processed

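The members and gene lists were chosen with earlier results of these data known. Total RNA was amplified before hybridisation, per the labels' protocols. The deposited log2 values, between 1.90 and 13.98, come from RMA in Affymetrix Expression Console (version 1.3.0.187) according to the submitters' processing notes. RMA compresses differences near the floor and the ceiling. Its settings are not given in the sources at hand.

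The platform table pairs 21789 of 35556 probe sets with 1 symbol and 1621 with several, and 12146 have none there. Symbols were updated by gene ID through the GRCm38.p6 gene table (21698 matched). The probe set with the highest mean stood for each of 19938 genes. The background level was the 95th percentile of the means of 1203 olfactory, vomeronasal and trace amine receptor genes. Where both arrays of the dimmer gate lay below it, the brighter gate's mean minus that level is given as a lower bound ("at least").

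limma 3.58.1 (lmFit and eBayes, R 4.3.3) fitted the 3 gate means to all 6 arrays. Tests were two-sided, with Benjamini-Hochberg adjustment over all 19938 genes and an adjusted p under 0.05 as the threshold. The fit was also run on simulated arrays with equal normal noise in every gate. That run cannot check how the results depend on single arrays. The number of arrays limits precision. Named genes were the 6 hormone genes, the 2 nearest genes of each, and in each list up to 3 genes with the smallest adjusted p in low against negative cells and in high against low cells, with all called genes where 3 or fewer were called. Pcsk5, Tcf7l2, Gast, Ghrl, Nucb2, Ppy and the marker genes are named although the rule does not reach them, chosen with their values in view. The promoter motifs were chosen with the sequences in view. Figures were drawn with matplotlib 3.10.9 in Python 3.11.15.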

Additional observations from a re-analysis of the deposited data

How the results depend on the processing

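Alternatives used another prior, only the 2 gates compared, genes above background, means of probe sets, other scalings, array weights, a stricter threshold or a replicate block, or left out 1 array. The 5 increases in low against negative cells stayed called in all of these. A gate left with 1 array adds nothing to the estimate of the spread. A call kept or gained in such a fit therefore does not check the spread of that gate. Of 288 member differences under the alternatives, 274 kept direction and call, 6 gained a call, 5 (all Cck, high against low) lost it and 3 changed sign. Those 3 were Insl5, at -0.053 (high against negative without high replicate 2), 0.011 and 0.16 (high against low without low replicate 1 or high replicate 1), none of them called. Without 1 array its differences ranged from -0.053 to 0.50 and from -0.39 to 0.16. Members called between high and negative cells numbered 1 with genes above background only, 2 with the replicate number as a block (Pyy, adjusted p = 0.0399, and Cck, adjusted p = 0.0417) and 0 to 2 without a single array. Those called between low and negative cells numbered 5 without any 1 array, and between high and low cells 4 to 5. The labels do not say whether same-numbered arrays share animals, so the numbers were not taken to pair the samples. Same-numbered arrays deviated together only weakly (correlations of 0.111, 0.114 and 0.0863 between gates), which cannot settle whether they share animals. Whether the block matches the sorting is therefore not known.

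All genes called numbered 2150 with array weights and 353 at an adjusted p under 0.01 in low against negative cells. In high against negative cells they numbered 561 (only the 2 gates), 621 (quantile normalization, 324 higher and 297 lower, against 272 and 667), 620 (array weights) and 61 (0.01), and in high against low cells 499, 942 (326 and 616, against 202 and 776), 607 and 319. Without 1 array they ranged over 187 to 1761, 13 to 1919 and 381 to 1739. The median difference over all genes was 0.13 in high against low and 0.10 in high against negative cells; with arrays centred on their medians the Gcg differences there were -5.61 and 0.69, against -5.60 and 0.78. The Nts bound was 6.23 with the background at the 99th percentile. Of 288 list counts under the alternatives, 245 stayed within 1.5 times. RMA signal near background limits Insl5, Nts outside the low gate and most receptor genes.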

Other observations

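The genes below were picked after their values were seen, from marker lists whose full counts are given. Of all genes, 3.42% rose and 2.54% fell in low over negative cells. In high against negative cells 1.36% rose and 3.35% fell, and in high against low cells 1.01% rose and 3.89% fell. Of 6 measured myeloid and mast cell markers, 4 rose and 2 fell in low over negative cells. In high against negative cells 1 rose and 4 fell, and in high against low cells 0 rose and 2 fell. Tyrobp and Fcer1g, signalling adaptors of myeloid and other immune cells, averaged 8.23, 10.54 and 6.77 and 8.14, 10.42 and 6.67 in negative, low and high cells. Both rose in the low gate (limma adjusted p = 0.00571 and 0.00506) and fell in high against low cells (adjusted p = 0.000953 and 0.000805). With negative replicate 1 left out neither increase passed (adjusted p = 0.0699 and 0.0572), nor did that of Tyrobp with negative replicate 2 left out (adjusted p = 0.0517). Kit, a receptor gene placed in this list as a mast cell marker, averaged 6.27, 8.35 and 8.74. It moved against Mcpt1 (7.51, 4.45 and 4.22) and Mcpt2 (7.87, 4.95 and 4.30), which encode proteases of mast cells. All 7 measured Paneth markers, like Kit, were higher in the low and in the high gate than in the negative gate. Which cells the Kit signal came from was not tested. The part of myeloid and mast cells in the hormone gene results was not tested either.

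Of 5 measured markers of enteric neurons and glia, 1 rose in low over negative cells (3.42% of all genes rose). In high against negative cells 1 rose (1.36% of all genes), and in high against low cells 1 fell (3.89%). Each time it was Ret, a receptor tyrosine kinase gene, which averaged 4.17, 6.73 and 5.10 in negative, low and high cells. Ret rose by 2.56 ± 0.19 (SE, limma adjusted p = 0.00128) from negative to low cells. Its rise from negative to high cells (limma adjusted p = 0.0462) was not called with array weights (adjusted p = 0.0675). Elavl4, a neuronal marker, was not above background in any gate. Of 5 stem cell markers, 0 were called in low over negative cells. In high against negative cells 1 rose (1.36% of all genes rose), and in high against low cells 1 rose (1.01%), each time Lgr5. Its rise from negative to high cells (limma adjusted p = 0.0447) was not called with array weights (adjusted p = 0.0583). Lgr5 averaged 6.54, 6.05 and 7.75 in negative, low and high cells, while Olfm4, Axin2, Ascl2 and Smoc2 averaged lower in high than in negative cells without a call. From low to high cells Olfm4, Ascl2 and Smoc2 averaged higher, as Lgr5 did, and Axin2 lower, also without a call. The median difference of the 5 markers from low to high cells was 0.57. The rise of Lgr5 from low to high cells of 1.70 ± 0.25 (adjusted p = 0.0134) was lost without either low array (adjusted p = 0.0798 and 0.0801).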
